A study of Mus musculus with 15 samples.

Results

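The genes described here encode the collagen IV chains, laminin chains and agrin that build the glomerular basement membrane, the sheet of matrix between the podocytes and the endothelium of the glomerulus. The 10 members were chosen by name as the main structural chains of that membrane, with earlier results of these data known. Counts of them set beside those of all genes are therefore not a test. All 10 were found among the 46078 genes of the deposited table. They are Col4a1, Col4a2, Col4a3, Col4a4 and Col4a5, which encode the α1 to α5 chains of collagen IV, the laminin genes Lama5, Lamb1, Lamb2 and Lamc1, and Agrn, which encodes agrin.

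The samples are podocyte fractions of kidney cortex from male C57BL/6J mice, sorted with magnetic beads against the podocyte protein nephrin, and each was sequenced as bulk mRNA. Young mice were 4 months old and were not injected. Both aged groups were 21 months old by their labels. The aged aPD1ab-injected mice received weekly intraperitoneal anti-PD-1 antibody (clone RMP1-14) at 12 mg/kg for 8 weeks, and the aged IgG2a-injected mice received the isotype control antibody (clone 2A3) at the same dose and schedule, so both aged groups share age and injections and neither is an uninjected aged group. PD-1 is an inhibitory receptor best known from T cells, and the antibody reaches the whole animal, not podocytes alone. The protocol gives 8 weeks, while sample titles of the antibody group carry 47 days. The labels list 5 mice in each group, and 13 libraries could be tied to a group, of which 5 were young, 4 were aged and given IgG2a, and 4 were aged and given aPD1ab.

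The collagen IV of the mature glomerular basement membrane is made mainly of α3, α4 and α5 chains wound into 1 trimer, which podocytes secrete and which takes the place of the α1 and α2 network of the immature membrane. The major laminin of the mature membrane holds the α5, β2 and γ1 chains (products of Lama5, Lamb2 and Lamc1), and the β1 chain (Lamb1) belongs to the laminin that precedes it and to many other basement membranes. Mutations of the α3, α4 or α5 chain cause Alport syndrome, mutations of LAMB2 cause Pierson syndrome, and the α3 chain carries the epitope recognised by autoantibodies in Goodpasture disease. Tubules, vessels and mesangium have basement membranes or matrix of their own, so the α1, α2 and laminin genes are not particular to podocytes. Which cells of the fractions gave the mRNA of the members, those of the α3, α4 and α5 chains included, was not determined.

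Total counts per library ran from 19912969 to 32717100, and every member had counts in every library. The fraction held podocyte mRNA together with that of other cells. In young mice nephrin (Nphs1) was at 43.2 to 81.4 CPM (read counts relative to the TMM-scaled total of each library), while the summed CPM of 10 podocyte markers had a median of 1212, that of 8 proximal tubule markers 5426, that of 5 distal nephron markers 8490.4 and that of 7 leukocyte markers 1640.2. Nphs1 was not at 0 in any library, and its lowest value was 4.15 CPM, with IgG2a. The first aged IgG2a library stood apart from the other 3 of its group. Its proximal tubule sum was 3217 CPM against 702 to 1064, its distal nephron sum was 13284 CPM against 5745 to 6298, and its leukocyte sum was 1353 CPM against 3449 to 4135. Tests and counts that rest on the aged IgG2a group are therefore given with it and, where a call or a count changed, also without it. Across such bulk fractions, fewer cells of a type and less RNA per cell cannot be told apart.

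**Figure D1:**
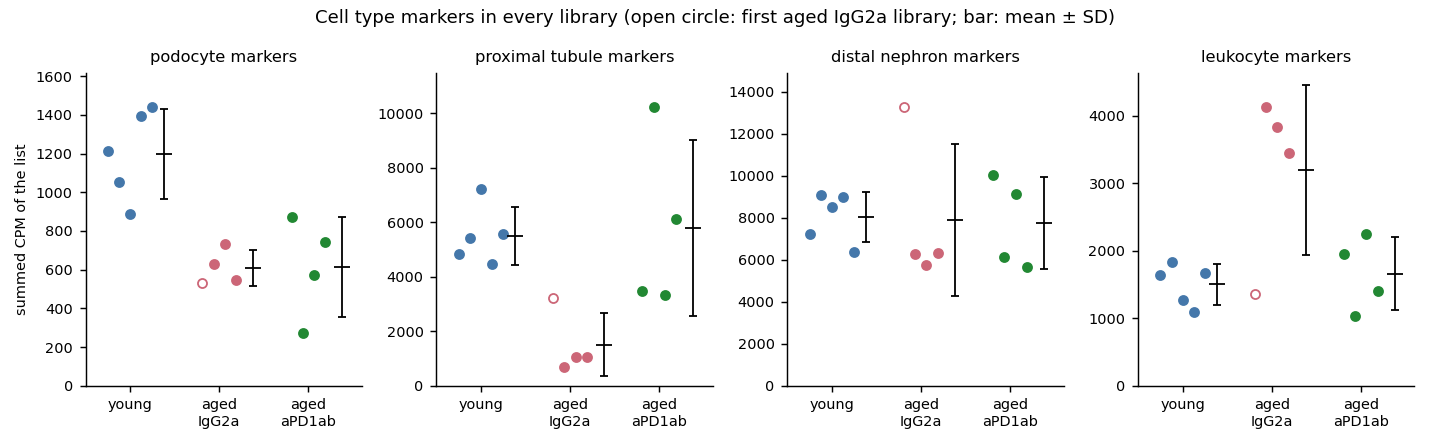
Summed CPM of marker genes of podocytes, proximal tubule, distal nephron and leukocytes in each of 13 libraries, by group, with the mean ± SD beside the points. The open circle is the first aged IgG2a library, at 3217 CPM of proximal tubule markers and 1353 CPM of leukocyte markers, apart from the other 3 libraries of its group in both.

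Collagen IV genes lie in pairs that start back to back on opposite strands. Col4a3 (ENSMUSG00000079465, GRCm38 chromosome 1, 82586921 to 82722059, forward strand) and Col4a4 (ENSMUSG00000067158, chromosome 1, 82448423 to 82586849, reverse strand) are separated by 71 bases. Col4a1 (ENSMUSG00000031502, chromosome 8, 11198423 to 11312826, reverse strand) and Col4a2 (ENSMUSG00000031503, chromosome 8, 11312805 to 11449287, forward strand) overlap by 22 bases at their starts. Col4a5 (ENSMUSG00000031274, chromosome X, 141475385 to 141689234, forward strand) starts 1308 bases from Col4a6, which is transcribed the other way. The strand setting of the counting was not given in the sources used here, and the antisense gene C430014B12Rik shares 563 exon bases with Col4a3, though it drew only 194 counts over all 13 libraries against 47270 for Col4a3.

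The bases between Col4a4 and Col4a3 are shown because Col4a4 was the member most like Col4a3 across libraries, and the bases before Col4a5 are shown beside them because its gene completes that set and lies on another chromosome. Both are read 5′ to 3′ on the forward strand of GRCm38.p6 from RefSeq promoter windows, at chr1:82586850-82586920 and chrX:141475169-141475384, and neither holds an annotated exon. Capitals mark a match on either strand to 1 of 4 motifs. These were the sequence GGGCGG of GC boxes and the sequence CCAAT of the box named after it, and further the sequence TATAAA of TATA boxes and the homeodomain core that reads TAATTA.
Col4a4 to Col4a3: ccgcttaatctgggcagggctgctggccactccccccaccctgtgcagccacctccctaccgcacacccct
before Col4a5: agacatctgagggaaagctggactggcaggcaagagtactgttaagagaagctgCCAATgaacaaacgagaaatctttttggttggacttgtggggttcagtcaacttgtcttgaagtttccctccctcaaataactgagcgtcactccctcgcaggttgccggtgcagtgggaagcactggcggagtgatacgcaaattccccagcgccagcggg

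The 71 bases between Col4a4 and Col4a3 had a GC content of 69.0% with 2 CpG and held none of the 4 motifs, and the 216 bases before Col4a5 had a GC content of 52.3% with 8 CpG and held 1 CCAAT. Promoter windows of 300 bases, from 250 before to 50 after the start, were found for 8 members. Among them, those of Col4a1, Col4a2, Col4a5 and Lamb1 held both GGGCGG and CCAAT, those of Lama5 and Agrn held GGGCGG without CCAAT, and those of Col4a4 and Lamb2 held none of the 4. Over all 32851 windows 35.7% held GGGCGG, 37.4% CCAAT, 13.6% TATAAA and 5.29% TAATTA, where motifs may overlap. A match of letters is not evidence of a factor bound there.

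Per length of exon, collagen IV mRNA led the members in young mice. Col4a1 was at 32.6 CPM per kb, followed by Col4a4 at 28.5, Col4a2 at 23.8, Col4a3 at 21.8, Lamb2 at 18.2, Lama5 and Lamb1 at 14.9 each, Agrn at 13.9, Col4a5 at 7.65 and Lamc1 at 7.35. Neighbours in this order were often not separable within libraries. Col4a1 exceeded Col4a4, Col4a4 exceeded Col4a2 and Col4a2 exceeded Col4a3 in 4 of 5 young libraries, Lama5 exceeded Lamb1 in 2 of 5, and Col4a5 exceeded Lamc1 in 3 of 5. In the aged groups Col4a3 moved from rank 4 to rank 8, at a mean of 6.76 CPM per kb with IgG2a and 9.59 with aPD1ab, while Col4a1 kept rank 1 in all 3 groups.

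**Figure D2:**
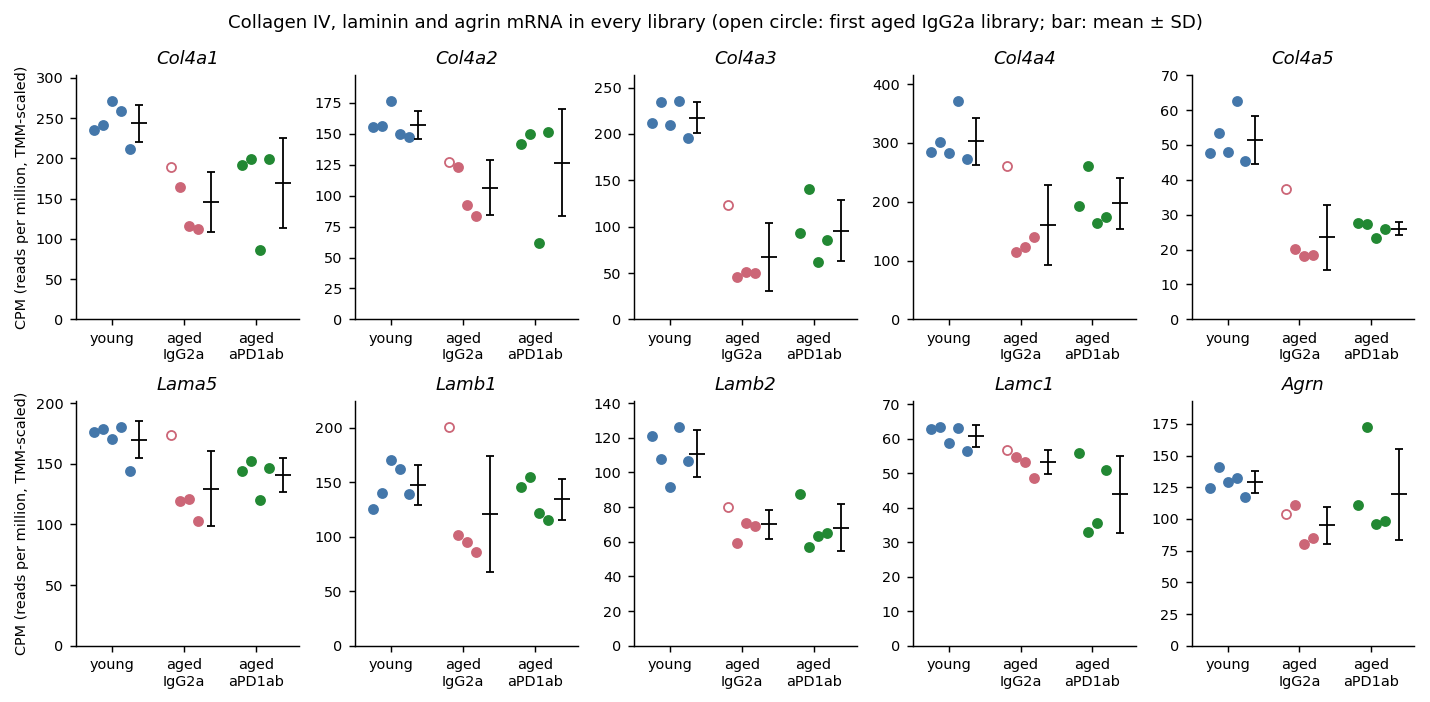
CPM of each of the 10 genes in each library, by group, with the mean ± SD beside the points and each axis starting at 0. The open circle is the first aged IgG2a library. Col4a1, Col4a3, Col4a4, Col4a5 and Lamb2 lay below every young library in all 4 aged IgG2a and all 4 aged aPD1ab libraries.

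The comparison of aged IgG2a-injected with young mice set aged, injected mice against young mice that were not injected. Age and the injections therefore cannot be told apart in it. In that comparison 6 of the 10 genes fell, all 5 collagen IV chains and Lamb2, and none rose, against 8.38% of all 15953 genes tested that fell and 9.05% that rose (edgeR adjusted p under 0.05). The median log2 fold change of the 10 genes was -0.55, and that of all genes was 0.038. Without the first aged IgG2a library 9 of 10 fell, all but Lamc1, beside 23.5% of 16216 genes.

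Col4a3, which encodes the α3 chain, had the largest decrease. It was at 212, 234, 210.0, 236 and 196 CPM in the young libraries and at 123, 45.2, 50.8 and 50.4 CPM in the aged IgG2a libraries, a mean of 218 ± 17.1 (SD, n = 5) against 67.3 ± 37.2 (SD, n = 4). The groups did not overlap, and the first aged IgG2a library held far more Col4a3 than each other library of its group. The log2 fold change (log2FC) was -1.64 (standard error, SE, 0.28, 3.12-fold lower, adjusted p = 0.0102), and -2.10 (SE 0.10, adjusted p = 2.21e-06) without that library. Col4a3 was the sole member to keep an adjusted p under 0.05 whichever of the 9 libraries was left out, with a highest value of 0.0379.

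Col4a4, which encodes the α4 chain, was at 284, 301, 283, 372 and 272 CPM in young mice and at 261, 115, 124 and 139 CPM with IgG2a. Again the first aged IgG2a library lay nearest to the young ones, just under the lowest of them. The log2FC was -0.87 (SE 0.24, adjusted p = 0.0352), a call that was lost when any library other than the first aged IgG2a library was left out. Without the first aged IgG2a library it was -1.21 (adjusted p = 4.23e-05).

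Col4a5, on the X chromosome, encodes the α5 chain. Its level was 47.5, 53.3, 48.0, 62.7 and 45.5 CPM in young mice and 37.3, 20.2, 18.0 and 18.5 CPM with IgG2a. All aged values lay below all young values, with the first aged IgG2a library again highest of its group. The log2FC was -1.07 (SE 0.21, 2.10-fold lower, adjusted p = 0.0162), and -1.38 without that library (adjusted p = 1.37e-05).

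The α1 and α2 chains, found in most basement membranes, had smaller decreases. Col4a1 was at 235, 241, 272, 258 and 212 CPM in young mice and at 189, 165, 116 and 113 CPM with IgG2a, so that the groups did not overlap. Its log2FC was -0.68 (SE 0.17, adjusted p = 0.0299), and -0.84 without the first aged IgG2a library (adjusted p = 0.000993). Col4a2 followed its neighbour, from a mean of 157 ± 11.5 CPM (SD, n = 5) to 107 ± 22.0 (SD, n = 4), a log2FC of -0.50 (SE 0.15, adjusted p = 0.0420), and of -0.60 without that library (adjusted p = 0.00397). These calls were less firm than that of Col4a3, since each was lost on leaving out single libraries, Col4a1 in 7 of 9 cases and Col4a2 in 8 of 9.

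Of the laminin genes, Lamb2, encoding the β2 chain of the mature glomerular laminin, was the one that fell over all mapped libraries. It was at 121, 108, 91.7, 126 and 107 CPM in young mice and at 80.1, 59.5, 71.0 and 69.3 CPM with IgG2a. The groups did not overlap, and the first aged IgG2a library, though the highest of its group, lay close to the others. The log2FC was -0.60 (SE 0.12, adjusted p = 0.0172), and -0.68 without that library (adjusted p = 0.000801).

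The other laminin genes and agrin did not pass the test over all mapped libraries. Lamb1, encoding β1, was at 200.4 CPM in the first aged IgG2a library, above every young library, and at 102, 95.1 and 85.6 CPM in the others, below every young library. Its log2FC was -0.23 (adjusted p = 0.500) with the first library and -0.59 (adjusted p = 0.00228) without it. Lama5, encoding the α5 chain of laminin, had a log2FC of -0.33 (adjusted p = 0.147) and of -0.51 without that library (adjusted p = 0.00266). Agrn, encoding a heparan sulfate proteoglycan that binds laminin, had -0.38 (adjusted p = 0.0630) and -0.43 without that library (adjusted p = 0.0135). Lamc1, encoding the γ1 chain shared by most laminins, had the value nearest 0, with -0.13 (adjusted p = 0.316) and -0.16 without the first library (adjusted p = 0.128).

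Counting libraries alone, 7 of the 10 genes had every aged IgG2a library below every young one and none had every one above, beside 9.57% and 4.84% of the 15329 genes tested in all comparisons. The genes with overlap were Lama5, Lamb1 and Lamc1. Without the first aged IgG2a library all 10 were lower without overlap, beside 28.0% of genes that were lower and 20.0% that were higher.

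Of the 10 podocyte markers 7 fell and 1 rose in the same comparison, in which 8.38% of all genes fell and 9.05% rose. Nephrin (Nphs1) had a log2FC of -2.80 (adjusted p = 0.00833), the transcription factor Wt1 of -2.59 (adjusted p = 0.00460) and the actin-binding protein synaptopodin (Synpo) of -1.84 (adjusted p = 0.00119), each a larger decrease than that of Col4a3, a difference that was not itself tested. All 8 proximal tubule markers, 7 of 9 endothelial markers and 3 of 8 mesangial and mural markers fell and 4 of 7 leukocyte markers rose. When the first aged IgG2a library was left out, 8 endothelial and 3 mesangial and mural markers fell and 6 leukocyte markers rose. Of all genes 23.5% then fell and 22.1% rose. The summed podocyte markers had medians of 1212 CPM (888 to 1442) in young mice and 587 CPM (531 to 730.3) with IgG2a, without overlap. The part of these shifts in the levels of the collagen and laminin genes was not tested.

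The comparison of aged aPD1ab-injected with young mice used the same young libraries, so it is no independent repeat of the first. Age and the injections cannot be told apart in it either. Here 4 of 10 genes fell, Col4a3, Col4a4, Col4a5 and Lamb2, and none rose, beside 9.97% and 12.4% of all 15986 genes tested. Their median log2FC was -0.49 over the 10 genes, and 0.017 over all genes. The 4 genes were among the 6 that fell with IgG2a, and Col4a1 and Col4a2 did not pass the test.

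Col4a3 was at 93.6, 141, 62.4 and 85.4 CPM with aPD1ab, all below the young range of 196 to 236. The log2FC from young was -1.18 (SE 0.21, 2.26-fold lower, adjusted p = 0.00557). Col4a5 was at 27.5, 27.3, 23.4 and 26.0 CPM, the tightest of the members in this group, again all below the young values, with a log2FC of -0.97 (SE 0.12, adjusted p = 0.00288). Both kept the call whichever of the 9 libraries was left out.

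Col4a4 was at 192, 260.1, 165 and 173 CPM with aPD1ab, the second library close under the lowest young value of 272. Its log2FC was -0.60 (SE 0.16, adjusted p = 0.0239), and it passed the test in 7 of 9 cases when 1 library was left out. Lamb2 was at 87.6, 57.0, 63.1 and 65.2 CPM, below all young libraries, a log2FC of -0.69 (SE 0.14, adjusted p = 0.00976) that was called in all 9 cases.

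Col4a1 and Col4a2 were split within the aPD1ab group. Col4a1 was at 192, 199.6, 85.8 and 199 CPM, and Col4a2 at 142, 150.3, 62.0 and 152 CPM. In both genes the third library lay far below the other 3, which for Col4a2 overlapped the young range. The log2FC values from young were -0.51 for Col4a1 (adjusted p = 0.131) and -0.30 for Col4a2 (adjusted p = 0.372).

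Lamc1 was at 55.9, 32.9, 35.7 and 50.8 CPM with aPD1ab against 56.3 to 63.3 CPM in young mice, without overlap, and narrowly missed the threshold, with a log2FC of -0.46 (adjusted p = 0.0584). Lama5 had -0.26 (adjusted p = 0.130), Lamb1 -0.13 (adjusted p = 0.524) and Agrn -0.10 (adjusted p = 0.702). Agrn reached 173 CPM in the second aPD1ab library, above every young library, and 95.7 to 111 CPM in the other 3, below them. In all, 6 of 10 genes had every aPD1ab library below every young one and none above, beside 10.5% and 11.7% of genes.

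The summed podocyte markers of the aPD1ab group ranged from 272 to 873 CPM, all below the young range, and the proximal tubule markers from 3313 to 10244 CPM, across the young range of 4482 to 7228. The second aPD1ab library held the lowest podocyte sum and the highest proximal tubule sum of the group. It also held the highest Col4a3, Col4a4, Lama5, Lamb1 and Agrn of the group and, by a small margin, the highest Col4a1. The part of the other cells in these levels was not tested.

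**Figure D3:**
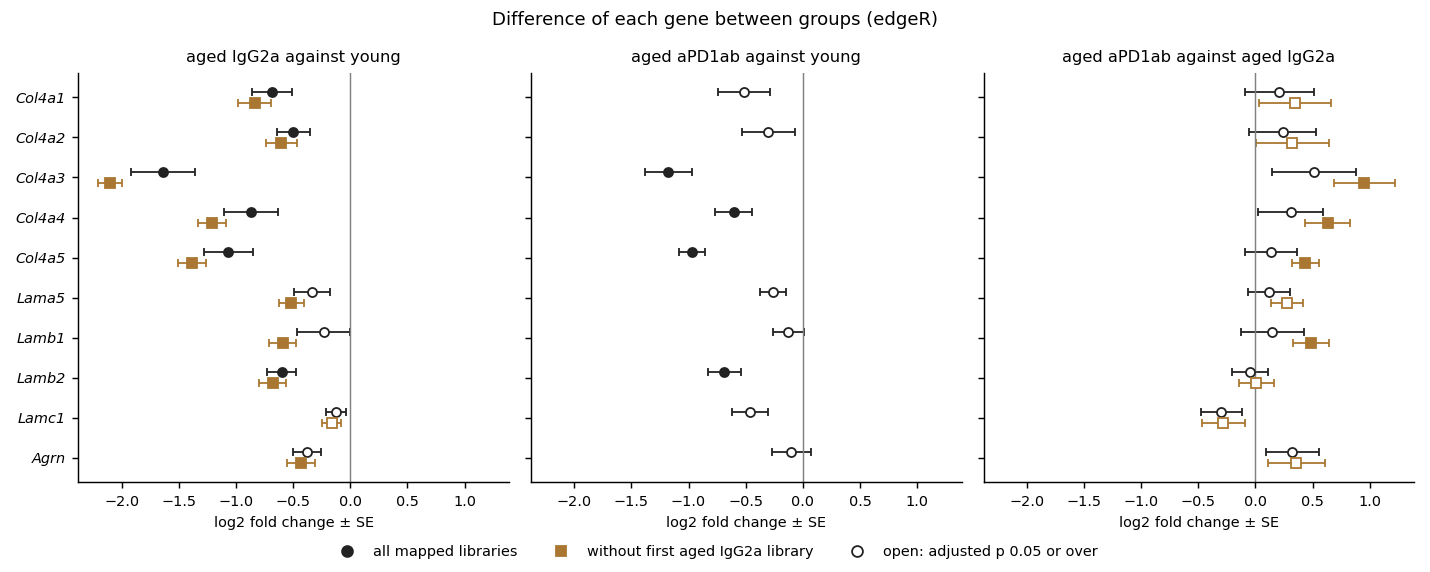
Log2 fold change with its SE for each of the 10 genes in the 3 comparisons, from edgeR. Circles use all mapped libraries and squares leave out the first aged IgG2a library, filled symbols have an adjusted p under 0.05. Against young mice all points lie left of 0, with Col4a3 farthest at -1.64 with IgG2a (-2.10 without the first library) and -1.18 with aPD1ab.

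The comparison of aged aPD1ab-injected with aged IgG2a-injected mice addressed the effect of the anti-PD-1 antibody at the same age. With all 4 aged IgG2a libraries, no member was called, and neither was any other of the 15530 genes tested (0.0% higher and 0.0% lower by edgeR, with 4341 genes at an unadjusted p under 0.05). DESeq2 called 1390 genes higher and 983 lower in these libraries, of which none was a member. By voom with sample quality weights, which give less weight to a library that departs from its group, Col4a3 (log2FC 0.75, adjusted p = 0.0164), Col4a4 (0.50, adjusted p = 0.0305) and Col4a5 (0.39, adjusted p = 0.0399) were higher with aPD1ab in the same 8 libraries. The same voom fit called 3240 of all 15530 genes higher and 2920 lower. By edgeR a positive difference was seen for 8 of the members, and the median over all 10 was 0.18 against -0.011 over all genes.

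Leaving out the first aged IgG2a library changed this result. Then Col4a3, Col4a4, Col4a5 and Lamb1 were higher with aPD1ab and no member was lower, beside 17.1% of 15770 genes that were higher and 13.2% that were lower. Leaving out any of the other 7 libraries instead, 1 at a time, called no member and no other gene. All 4 genes were higher in the first aged IgG2a library than in the others of its group, so leaving it out lowered their aged IgG2a means. The log2FC of Col4a3 was 0.95 (SE 0.27, 1.94-fold higher, adjusted p = 0.0301) without that library and 0.51 (SE 0.37, adjusted p = 0.377) with it. In those 3 aged IgG2a libraries Col4a3 lay between 45.2 and 50.8 CPM and in the 4 aPD1ab libraries between 62.4 and 141, and the groups did not overlap.

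Col4a4 had a log2FC of 0.63 (adjusted p = 0.0420) without the first aged IgG2a library and of 0.31 (adjusted p = 0.498) with it. For Col4a5 it was 0.44 (adjusted p = 0.0274) without and 0.14 (adjusted p = 0.719) with it, and for Lamb1 0.49 (adjusted p = 0.0452) without and 0.15 (adjusted p = 0.748) with it. These 4 genes were also those without overlap between the 3 aged IgG2a and the 4 aPD1ab libraries, all higher with aPD1ab, beside 25.2% of genes that were higher and 18.7% that were lower. With all 4 aged IgG2a libraries no member was free of overlap, beside 7.27% of genes that were higher and 4.75% that were lower.

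Col4a1, Col4a2, Lama5 and Agrn had log2FC values of 0.21, 0.24, 0.12 and 0.32, with standard errors of 0.30, 0.29, 0.18 and 0.23. Lamb2 was close in the aged groups, at a mean of 70.0 ± 8.46 CPM for IgG2a (SD over 4 libraries) and 68.2 ± 13.4 for aPD1ab (SD over 4 libraries), a log2FC of -0.050 (SE 0.16, adjusted p = 0.855) whose sign turned when scaling used library size alone. Lamc1 had the lowest value, -0.30 (SE 0.18, adjusted p = 0.288). The proximal tubule marker sum was higher in every aPD1ab library (3313 to 10244 CPM) than in every aged IgG2a library (702 to 3217 CPM), and without the first aged IgG2a library 7 of 8 of these markers were called higher. The leukocyte sum of the aPD1ab libraries (1030.4 to 2253 CPM) was below that of the other 3 aged IgG2a libraries (3449 to 4135 CPM) without overlap, and 6 of 7 leukocyte markers were then called lower. In the same libraries 3 of 10 podocyte markers were called higher and 1 lower. Of 4 parietal epithelial markers 2 were called higher, where 17.1% of all genes were higher and 13.2% lower. The part of these shifts in the higher collagen and Lamb1 levels was not tested.

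Ratios of chains within a library do not depend on scaling between libraries, and they were compared per kb of exon with no test. The ratio of Col4a3 to Col4a4, the 2 genes that share a start region, was 0.793, 0.829, 0.790, 0.676 and 0.767 in young mice, 0.502, 0.418, 0.438 and 0.385 with IgG2a, and 0.519, 0.577, 0.404 and 0.524 with aPD1ab. Both aged groups lay below every young library, the first aged IgG2a library included, and the aged groups overlapped each other. The mean was 0.771 ± 0.0578 (SD, n = 5) in young mice, 0.436 ± 0.0494 (SD, n = 4) under IgG2a and 0.506 ± 0.0730 (SD, n = 4) with aPD1ab.

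The ratio of the α3, α4 and α5 genes to the α1 and α2 genes was less clear, and the part of other cells in it was not tested. It was 1.00, 1.07, 0.870, 1.19 and 1.03 in young mice, 0.951, 0.452, 0.660 and 0.755 with IgG2a, and 0.669, 0.864, 1.21 and 0.580 with aPD1ab. The groups overlapped, in the aged IgG2a group through its first library and in the aPD1ab group through the third library, the one with the low Col4a1 and Col4a2. Without its first library the aged IgG2a group was at 0.622 ± 0.155 (SD, n = 3), below all young values.

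**Figure D4:**
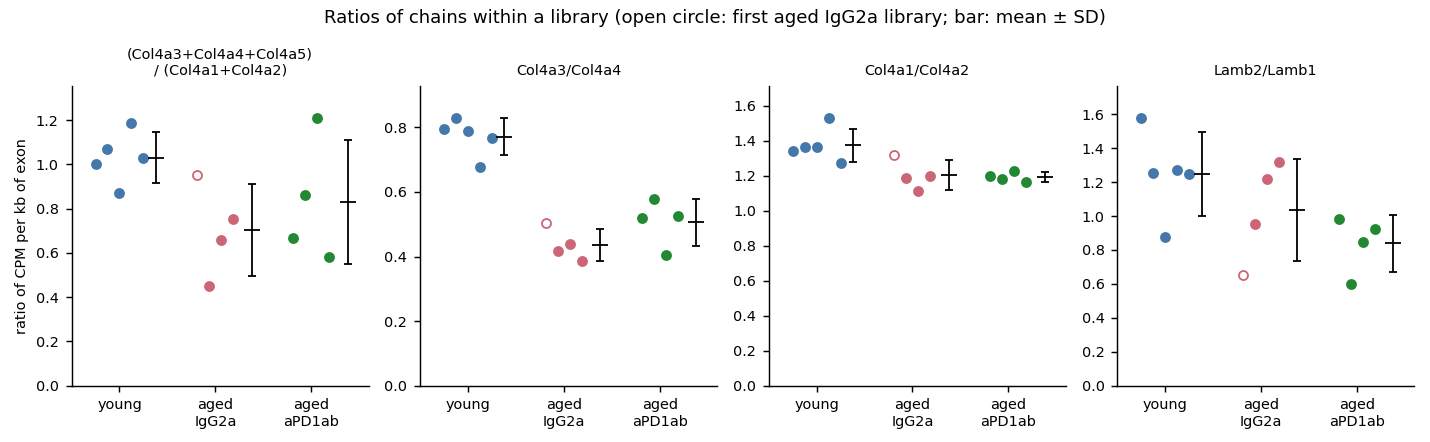
Ratio of CPM per kb of exon within each library, by group, for 4 pairs of chains or sums of chains, with the mean ± SD beside the points and axes starting at 0. Col4a3 to Col4a4 separates all aged libraries (0.385 to 0.577) from all young ones (0.676 to 0.829), while Lamb2 to Lamb1 overlaps between groups.

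Within the α3, α4 and α5 set, Col4a3 also lost ground to Col4a5 with IgG2a, from a ratio of 2.87 ± 0.190 (SD, n = 5) to 1.86 ± 0.292 (SD, n = 4) without overlap, while with aPD1ab it was 2.45 ± 0.722 (SD, n = 4) and overlapped both groups. Col4a4 to Col4a5 was 3.73 ± 0.0895 (SD, n = 5) in young mice, 4.28 ± 0.487 (SD, n = 4) under IgG2a and 4.79 ± 0.840 (SD, n = 4) with aPD1ab, where all libraries were above the young ones. Col4a1 to Col4a2 was 1.37 ± 0.0949 (SD, n = 5) in young mice and 1.19 ± 0.0274 (SD, n = 4) with aPD1ab, again without overlap, and 1.20 ± 0.0840 (SD, n = 4) with IgG2a, with overlap through the first library.

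As a share of the 5 collagen IV chains per kb, Col4a3 made up 19.1% ± 0.879 (SD, n = 5) in young mice, 10.7% ± 2.67 (SD, n = 4) under IgG2a and 12.9% ± 1.93 (SD, n = 4) with aPD1ab. The aged shares reached 14.2% and 15.3% at most, under the lowest young share of 17.9%. Col4a4 held a similar share in all groups, 24.9%, 24.3% and 26.0%. The mean share of Col4a2 was larger in both aged groups, with overlap. It was 20.8% in young mice, 27.0% with IgG2a and 25.4% with aPD1ab.

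**Figure D5:**
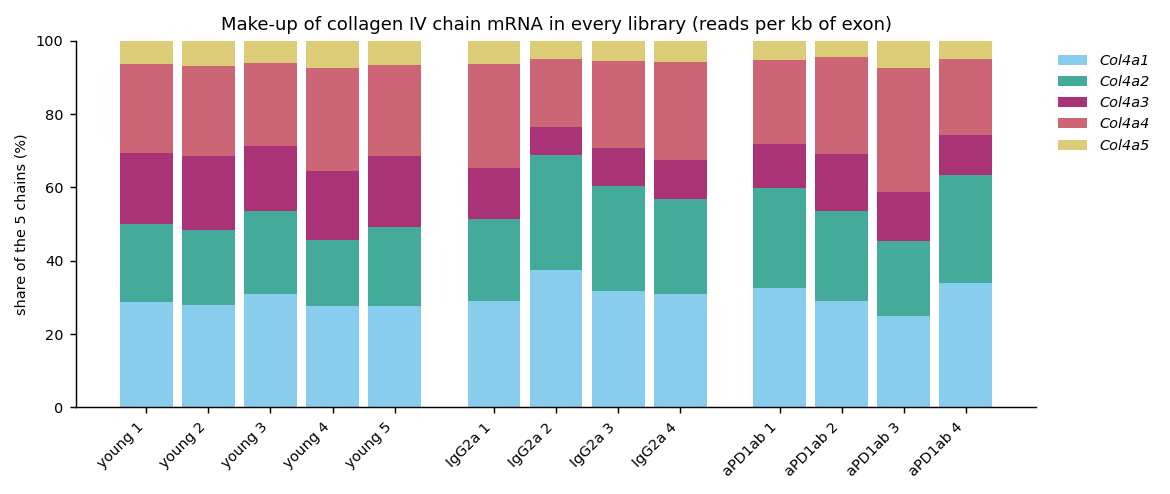
Share of each of 5 collagen IV chain genes in their summed CPM per kb of exon, in percent, 1 bar per library. The Col4a3 band is 17.9% or more in each young library and 15.3% or less in each aged library.

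Among the laminin genes, Lamb2 to Lamb1 was 1.25 ± 0.248 (SD, n = 5) in young mice, 1.04 ± 0.298 (SD, n = 4) under IgG2a and 0.839 ± 0.169 (SD, n = 4) with aPD1ab. The groups overlapped, and the part of other cells in this ratio was not tested. Lamb2 to Lamc1 was 2.47 ± 0.247 (SD, n = 5) in young mice and 1.79 ± 0.216 (SD, n = 4) with IgG2a, without overlap, and 2.16 ± 0.301 (SD, n = 4) with aPD1ab, with overlap. Lama5 to Lamc1 overlapped in all pairs of groups when all libraries were used.

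Of the other components of basement membranes, 18 genes, 17 had a negative log2FC with IgG2a. Among them 9 fell from young levels and none rose, and 12 fell without the first aged IgG2a library, beside 8.38% and 23.5% of all genes. The 4 with the smallest p were Lama3, of the epithelial laminin 332, with a log2FC of -1.52 (adjusted p = 0.00476), the collagen IV cross-linking peroxidase Pxdn with -0.65 (adjusted p = 0.0123), nephronectin (Npnt), an integrin ligand made by podocytes, with -1.17 (adjusted p = 0.0223), and nidogen 2 (Nid2), which links laminin to collagen IV, with -0.61 (adjusted p = 0.0232). Npnt was the most abundant of this list per kb in young mice, at 40.7 CPM per kb, but not in the aged groups, at 17.4 with IgG2a, under Col18a1 at 24.9, and at 21.8 with aPD1ab, under Tinag at 28.8. The median log2FC of the list was -0.47.

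With aPD1ab 5 of these 18 fell from young levels and none rose, beside 9.97% of all genes that fell and 12.4% that rose. The median of the list was -0.46. Col15a1, a collagen of the outer side of basement membranes, had -0.88 (adjusted p = 0.0155), the α6 chain gene Col4a6, neighbour of Col4a5, had -1.08 (adjusted p = 0.0183), Npnt had -0.89 (adjusted p = 0.0203) and netrin 4 (Ntn4), which binds laminin γ chains, had -0.47 (adjusted p = 0.0280). Col4a6 was low in all groups, at 3.90 CPM in young mice, 2.30 with IgG2a and 1.80 with aPD1ab.

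Of the genes for collagen processing enzymes and chaperones, 15 in all, 2 rose and 2 fell with IgG2a, beside 9.05% of all genes that rose and 8.38% that fell. The counts were 3 and 8 without the first aged IgG2a library, beside 22.1% and 23.5%. The lysyl hydroxylase Plod2 had a log2FC of -1.32 (adjusted p = 0.0199) and the prolyl 4-hydroxylase subunit P4ha2 of -1.11 (adjusted p = 0.0220), while the collagen galactosyltransferase Colgalt1 had 0.91 (adjusted p = 0.0227) and P3h3 of the prolyl 3-hydroxylase family 0.74 (adjusted p = 0.0439). The median of the list was -0.16. With aPD1ab 1 gene, the cartilage-associated protein Crtap, rose by 0.33 (adjusted p = 0.0367) from young levels. None fell, beside 12.4% of all genes that rose and 9.97% that fell. P4hb, the most abundant per kb, was at 165 CPM per kb in young mice, 126 with IgG2a and 169 with aPD1ab.

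Matrix receptors of glomerular cells, 11 genes, include the integrins and dystroglycan that hold podocytes to laminin. With IgG2a 1 fell, integrin α3 (Itga3), the main laminin receptor subunit of podocytes, with a log2FC of -0.81 (adjusted p = 0.0172), a share of the list close to the 8.38% of all genes that fell. Without the first aged IgG2a library 6 fell, beside 23.5% of all genes, and none rose. With aPD1ab 4 fell from young levels, Itga1 with -0.82 (adjusted p = 0.0105), dystroglycan (Dag1) with -0.50 (adjusted p = 0.0182), Itgb4 with -0.68 (adjusted p = 0.0328) and Itga2 with -1.70 (adjusted p = 0.0386). None rose, beside 9.97% of all genes that fell and 12.4% that rose. Syndecan 4 (Sdc4), the most abundant per kb, was at 153, 152 and 188 CPM per kb in the 3 groups.

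Between the aged groups no gene of these 3 lists passed the test over all mapped libraries. Without the first aged IgG2a library 2 other basement membrane genes were higher with aPD1ab and 1 was lower, 5 processing genes were higher and 1 lower, and 4 receptors were higher and none lower, beside 17.1% and 13.2% of all genes.

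Over the 13 libraries, the gene whose log2 CPM was most like that of Col4a3 was Gpam, an acyltransferase of glycerolipid synthesis, with a Pearson r of 0.973, and Col4a4 stood second of 15328 genes with 0.972. Igf1r, Plekha5 and Itpr1 followed, and Col4a5 stood at rank 7 with 0.961. The other members were farther down, with Lama5 at rank 181, Col4a1 at 575, Lamb2 at 995, Agrn at 1425, Col4a2 at 1491, Lamb1 at 1651 and Lamc1 at 4723. For Col4a1 the most alike gene was its neighbour Col4a2, with 0.975, followed by Inpp5e, Zdhhc5, Asxl3 and Acaca, and Col4a3 stood at rank 106. These values describe patterns across libraries that differ in group and in cell make-up, so they carry no test.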

How the data were processed

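Podocyte fractions were sequenced by the authors as bulk mRNA, and the deposited table holds raw read counts per Ensembl gene without normalization. HISAT2, featureCounts and the builds mm10 and GRCm38 are named in the submitters' processing notes; versions and strand setting are not given in the sources used here. Columns carry numbers that were matched to those the study prints beside its points, which name the group and not the labelled sample. There were 2 columns that could not be matched, and they were not used. Symbols and exon lengths came from GENCODE M21 (GRCm38), which matched 45143 genes, and CPM per kb divides by the merged exon length.

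Each pair of groups was fitted in R 4.3.3 with edgeR 4.0.16 (quasi-likelihood, robust, TMM, filterByExpr) with Benjamini-Hochberg adjustment over all genes tested, at an adjusted p under 0.05. Tested on simulated data with 200 changed genes, the fit recovered 94.5% for aged IgG2a against young (15953 genes, 8 false calls), 89% for aged aPD1ab against aged IgG2a (15530 genes, 5 false calls) and 90.5% for aged aPD1ab against young (15986 genes, 8 false calls). The simulation gave all genes the same dispersion of 0.05 and changes of 2-fold or 4-fold in genes with a mean over 5 CPM. It held no library that stood apart from its group, so these shares do not measure recovery in the real libraries. Totals from 19912969 to 32717100 counts cover counting error only. DESeq2 1.42.0, limma 3.58.1 (voom with sample quality weights), other scalings, no filter, a fit of all groups and leaving out each library were alternatives. The members and lists were chosen with earlier results of these data known. All members are described. Of other lists, the 4 called genes with the smallest p and the most abundant gene per kb are named. Likeness used log2(CPM + 1) and the 5 largest Pearson r. Values of 2 podocyte markers are not reported here.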

Additional observations from a re-analysis of the deposited data

Results flagged for a closer look

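Within groups of 4 or 5 libraries, 54 sets of values were checked for a library whose gap to the next was large for the range of its group (Dixon's ratio). About 1 in 20 independent sets of normal values would hold such a library by chance. These sets share genes and libraries, so their count is not a test against chance. Such a library was found in 13 of 54 sets. Of them, 5 were in the first aged IgG2a library, which was higher than the other 3 for Col4a3 (123 CPM), Col4a4 (261 CPM), Col4a5 (37.3 CPM), Lamb1 (200.4 CPM) and the ratio of Lama5 to Lamc1 per kb (2.23). This library also held the highest distal nephron marker sum of all libraries (13284 CPM) and the highest proximal tubule sum of its group (3217 CPM), and the part of those cells was not tested. In the third aged aPD1ab library Col4a1 (85.8 CPM) and Col4a2 (62.0 CPM) were both far below the other 3, while its Col4a5 was 23.4 CPM against 26.0 to 27.5.

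In the second aged aPD1ab library the ratio of Col4a4 to Col4a5 was high (6.04). Among young libraries the fourth was high for Col4a4 (372 CPM) and low for Col4a3 to Col4a5 (2.54), the second was low for Col4a4 to Col4a5 (3.57), and the fifth was low for Lama5 (144 CPM) and for Lama5 to Lamc1 (1.85).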

How the results depend on the processing

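For aged IgG2a against young, the count of members that fell was 6 and ranged from 1 to 9 when 1 library was left out, with 9 without the first aged IgG2a library, 1 (Col4a3) without the second or the third, and 3 or 4 without any other. With a change over 2-fold also required it was 2. For aged aPD1ab against young the count that fell ranged from 3 to 5 on leaving out 1 library and was 1 with a change over 2-fold. For aged aPD1ab against aged IgG2a the count that were higher ranged from 0 to 4 on leaving out 1 library. It was 3 (Col4a3, Col4a4 and Col4a5) by voom with sample quality weights, and 4 without the first aged IgG2a library by edgeR, DESeq2, voom with sample quality weights and 1 fit of all 3 groups; the last 3 of these fits were chosen after seeing the data. The log2 fold change of Lamb2 in that comparison turned from -0.050 to 0.21 with library size only, and without the first aged IgG2a library to 0.0082 by edgeR, 0.0068 by voom and 0.037 by the fit of all groups, and ranged from -0.18 to 0.016 on leaving out 1 library (0.016 without the second aged aPD1ab library), none past the threshold. No other member changed direction in any alternative of any comparison. With library size only the median of all genes shifted by -0.38 for aged IgG2a against young, and calls went from 1443 higher and 1337 lower to 331 higher and 3380 lower. Log2 differences between aged and young mice in the ratios of members moved by less than 1 SD of the aged group when counts replaced CPM per kb. For ratios of 2 genes exon length cancels in such a difference, so only the ratio of summed genes could move. The differences also moved by less than 1 SD without the first aged IgG2a library. Leaving out 1 of 4 libraries cannot move a group mean by 1 SD, so that result was fixed in advance. The ratios themselves differ between the 2 scales. Over all genes, calls for aged IgG2a against young rose to 3584 higher and 3813 lower without the first aged IgG2a library and were 3875 and 3548 by voom, and for aged aPD1ab against aged IgG2a they went from 0 to 2702 higher and 2086 lower without that library, to 3240 and 2920 by voom and to 1861 and 1002 in 1 fit of all 3 groups. The groups held different mice, and no pairing of mice between groups is given, so no paired analysis was made.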
